A study of Mus musculus with 12 samples.

Results

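The response of hippocampal miRNAs to status epilepticus was described over both genotypes together, by setting 6 samples taken after kainic acid (KA) against 6 vehicle-injected control samples with genotype as a covariate. The miRNA assays described were those with a threshold cycle (Ct) in every one of the 12 samples, which held for 335 of 619 miRNA assays, and the plant and small nucleolar control assays were set aside. The control groups were wt and P2rx7-/- mice injected with phosphate-buffered saline (3 samples each), and the post-SE groups were wt and P2rx7-/- mice given 0.3 μg KA into the right basolateral amygdala (3 samples each). The mice were C57BL/6, 8 weeks old by the sample labels and 8 to 12 weeks old and male by the methods. The P2rx7-/- mice lack exon 2 of the P2X7 receptor gene in all cells, carrying the allele P2rx7tm1d(EUCOMM)Wtsi. All mice, controls included, received 6 mg/kg lorazepam, 40 min after the injection, and the ipsilateral hippocampus was taken at 8 h. Hippocampi of 2 mice were combined in every sample, so the spread between samples is that between pools. The extract was of whole tissue, in which a change in the number of cells of a type and a change in RNA per cell cannot be told apart.

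A miRNA is cut from a hairpin precursor, and one strand of the duplex, the guide strand, is usually loaded into an Argonaute protein, where bases 2 to 8 (the seed) pair with target messenger RNAs. The other strand, the passenger strand, is written with an asterisk (miR-21*), is usually degraded, and can itself be loaded. In the hippocampus, prolonged seizures are known to change miRNAs linked to neuronal activity, such as miR-132, miR-212 and miR-134, and miRNAs of glia and inflammation, such as miR-146a, miR-155 and miR-21.

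Sequences are given for the miRNAs on which the results turn, so that strands and seed families can be compared. They are the mouse mature sequences of RefSeq (GRCm38.p6), 5′ to 3′, with the seed in capitals. Of 23 assays looked up by name, 20 had an entry, and miR-685, miR-720 and miR-1274A were not matched. Assays named hsa- or rno- were designed on the human or rat sequence, and the mouse sequence is shown for them. The passenger and guide strands of the miR-21, miR-335, miR-27a and miR-93 hairpins have different seeds.
miR-21* (chr11:86584082-86584103, minus strand): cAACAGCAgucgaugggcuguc
miR-21 (chr11:86584120-86584141, minus strand): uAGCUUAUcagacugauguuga
miR-335* (chr6:30741354-30741375, plus strand): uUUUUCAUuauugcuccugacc
miR-335 (chr6:30741314-30741336, plus strand): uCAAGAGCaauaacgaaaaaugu
miR-27a* (chr8:84208685-84208706, plus strand): aGGGCUUAgcugcuugugagca
miR-27a (chr8:84208727-84208747, plus strand): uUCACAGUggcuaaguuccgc
miR-93* (chr5:138165536-138165557, minus strand): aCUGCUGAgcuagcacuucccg
miR-93 (chr5:138165574-138165596, minus strand): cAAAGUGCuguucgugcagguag
The next pair, both known to be induced by neuronal activity and processed from neighbouring hairpins of a single transcript, share the seed AACAGUC and 17 of 22 positions counted from the 5′ end. The activity-regulated miR-134 lies in the imprinted cluster of distal chromosome 12.
miR-212 (chr11:75173443-75173464, plus strand): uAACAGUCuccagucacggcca
miR-132 (chr11:75173723-75173744, plus strand): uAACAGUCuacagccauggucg
miR-134 (chr12:109734145-109734166, plus strand): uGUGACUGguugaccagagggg
The miRNAs with lower values post-SE that are shown next include members of seed pairs, miR-190b with miR-190 (GAUAUGU) and miR-130b with miR-301 (AGUGCAA).
miR-190b (chr3:90070030-90070051, plus strand): uGAUAUGUuugauauuggguug
miR-190 (chr9:67236700-67236721, minus strand): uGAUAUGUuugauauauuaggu
miR-130b (chr16:17124071-17124092, minus strand): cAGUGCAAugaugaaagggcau
miR-301 (chr11:87113054-87113076, plus strand): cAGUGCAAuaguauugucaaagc
miR-337-3p (chr12:109585850-109585871, plus strand): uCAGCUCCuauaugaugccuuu

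The number of miRNA assays with a Ct was 470 to 538 in the control samples and 476 to 519 in the post-SE samples. No difference larger than the spread between samples was found for this number (two-sided exact permutation test within genotype, p = 0.935), for the mean Ct (p = 0.77), or for normalized snoRNA135 (p = 0.49) and snoRNA202 (p = 0.35, exact permutation tests). Wt control replicate 1 stood apart, with Spearman correlations across the 335 assays of 0.660 to 0.737 with the other samples, and log2 values of named miRNAs that moved by over 1.5 times without it are given without it as well. Each assay was read in 1 well per sample, and the listed Ct values run from 10 to 28. The mean Ct of the 335 assays was subtracted from each value of a sample, and levels are given relative to the geometric mean of the 6 control samples of that assay, so they do not compare 1 miRNA with another.

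Status epilepticus raised 2 miRNAs, miR-21* and miR-685, at an adjusted p below 0.05 (limma with Benjamini-Hochberg adjustment over 335 assays; 0.597% of those tested), and lowered none. An unadjusted p below 0.05 was reached by 16 miRNAs (4.78%), with 9 higher (2.69%) and 7 lower (2.09%) post-SE. That split turned with the normalizer, to 4 higher and 13 lower with snoRNA202, which moved the median log2 change of all assays from -0.05 to -0.20. It was 8 higher and 4 lower with snoRNA135, 5 and 6 with the mean of all detected assays, and 4 and 10 with the deposited fold changes. The 6 post-SE samples lay above all 6 control samples for 4 miRNAs (1.19%), namely miR-21*, miR-685, miR-335* and miR-27a*, and below all of them for 0 (0.0%). Exact permutation p-values below 0.05 were found for 20 miRNAs (5.97%). The precision was uneven across assays. The 95% interval of the log2 change lay within 1 of 0 for 150 assays (44.8%), and the standard error was 0.23 at the 10th percentile, 0.36 at the median and 1.05 at the 90th.

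**Figure D1:**
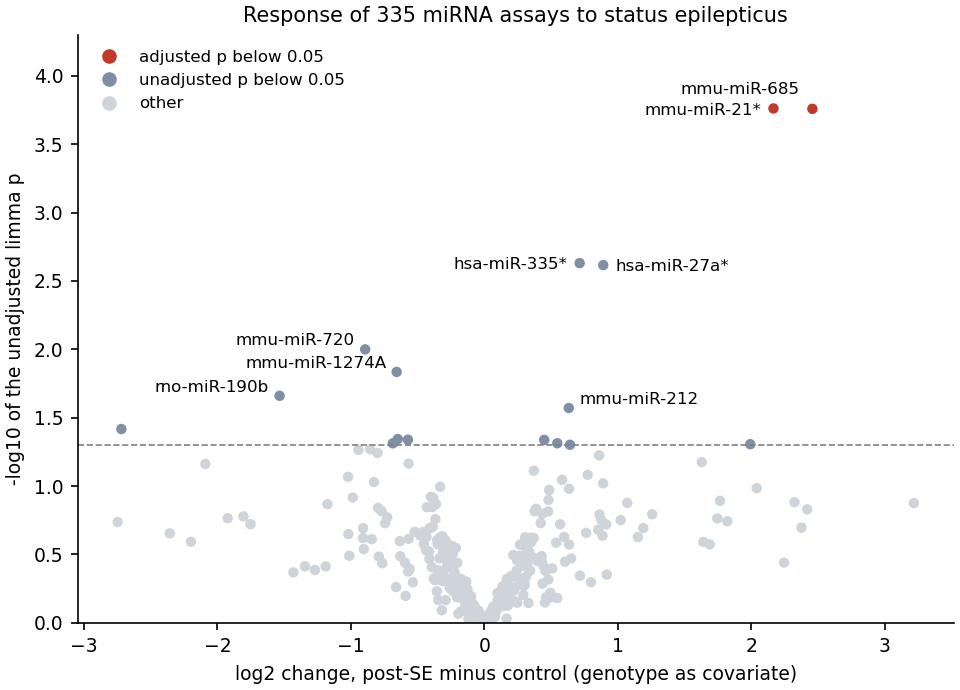
Log2 change post-SE against control (x axis) and -log10 of the unadjusted limma p (y axis) for the 335 miRNA assays, with genotype as covariate. Each point is an assay and the dashed line is an unadjusted p of 0.05; miR-21* and miR-685 lie above all others, followed by miR-335* and miR-27a*.

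MiR-21*, the passenger strand of the hairpin whose guide strand miR-21 is known to be induced in injured and inflamed tissue, rose 4.49-fold (95% interval 2.47 to 8.17). Its levels were 0.877, 0.589 and 1.22 in the wt control samples and 0.719, 3.40 and 0.649 in the P2rx7-/- control samples. Post-SE it lay at 3.71, 5.12 and 4.77 in wt and at 4.42, 4.04 and 5.08 in P2rx7-/- mice. Thus 5 of 6 control samples lay at 1.22 or lower, P2rx7-/- control replicate 2 came close to the post-SE range, and the post-SE samples of both genotypes covered the same narrow range. The log2 change was 2.17 (standard error 0.39, adjusted p = 0.0292, limma), with 2.39 in wt and 1.95 in P2rx7-/- mice, and the exact permutation p was 0.005, the smallest that the 400 arrangements allow. Without wt control replicate 1 the log2 change was 2.15 (adjusted p = 0.0706). Leaving out each sample in turn kept the log2 change between 2.00 and 2.53, and the adjusted p was below 0.05 only without P2rx7-/- control replicate 2 (0.000271), and up to 0.103 without each of the other samples, the highest value being reached without wt post-SE replicate 2.

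MiR-685, an assay with no RefSeq mature entry, rose 5.50-fold (95% interval 2.79 to 10.8). It lay at 0.501, 1.57 and 0.422 in wt control and at 0.697, 2.24 and 1.93 in P2rx7-/- control samples. The post-SE levels were 5.20, 5.09 and 5.10 in wt and 10.5, 6.38 and 3.06 in P2rx7-/- mice. The wt post-SE samples were nearly alike, whereas the P2rx7-/- post-SE samples spread over a wider range and still lay above every control. The log2 change was 2.46 (standard error 0.45, adjusted p = 0.0292, limma; exact permutation p = 0.005), with 2.89 in wt and 2.03 in P2rx7-/- mice. It was 2.31 without wt control replicate 1 (adjusted p = 0.0706). With each sample left out in turn it lay between 2.25 and 2.72, and the adjusted p remained below 0.05 without wt control replicate 2 (0.0418), P2rx7-/- control replicate 2 (0.0278) or P2rx7-/- post-SE replicate 3 (0.0246) and reached at most 0.103 without any other sample.

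Other scalings and models ended both calls. The adjusted p of both was 0.166 with snoRNA202 as normalizer and 0.0936 with the deposited fold changes (limma). With a coefficient for each of the 4 groups, the adjusted p of both was 0.0521 (limma), and with samples weighted by their spread it was 0.104 for miR-21*, and miR-335* alone was called.

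MiR-335* and miR-27a*, also passenger strands, were separated between conditions without passing the adjusted threshold. MiR-335*, from a hairpin in an intron of Mest, ranged in the control samples from 0.857 to 1.26 (median 0.994) and in the post-SE samples from 1.33 to 2.06 (median 1.67). Its log2 difference was 0.71 (standard error 0.18, adjusted p = 0.203, limma; exact permutation p = 0.005), with 0.93 in wt and 0.50 in P2rx7-/- mice. MiR-27a*, from the hairpin cluster that also gives miR-23a and miR-24, ranged from 0.774 to 1.44 (median 0.906) in control and from 1.57 to 2.37 (median 1.76) in post-SE samples. The log2 difference was 0.89 (standard error 0.23, adjusted p = 0.203, limma; exact permutation p = 0.005), nearly equal in wt (0.93) and P2rx7-/- mice (0.85). In both cases the gap between the highest control and the lowest post-SE sample was narrow. Without wt control replicate 1 the log2 differences were 0.70 and 0.82 (adjusted p = 0.453 for both). Full separation of post-SE from control samples by itself puts the exact permutation p at 0.005, its lowest possible value. That p restates the separation and is not separate evidence of a change. The same holds for the exact permutation p of miR-21* and miR-685.

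**Figure D2:**
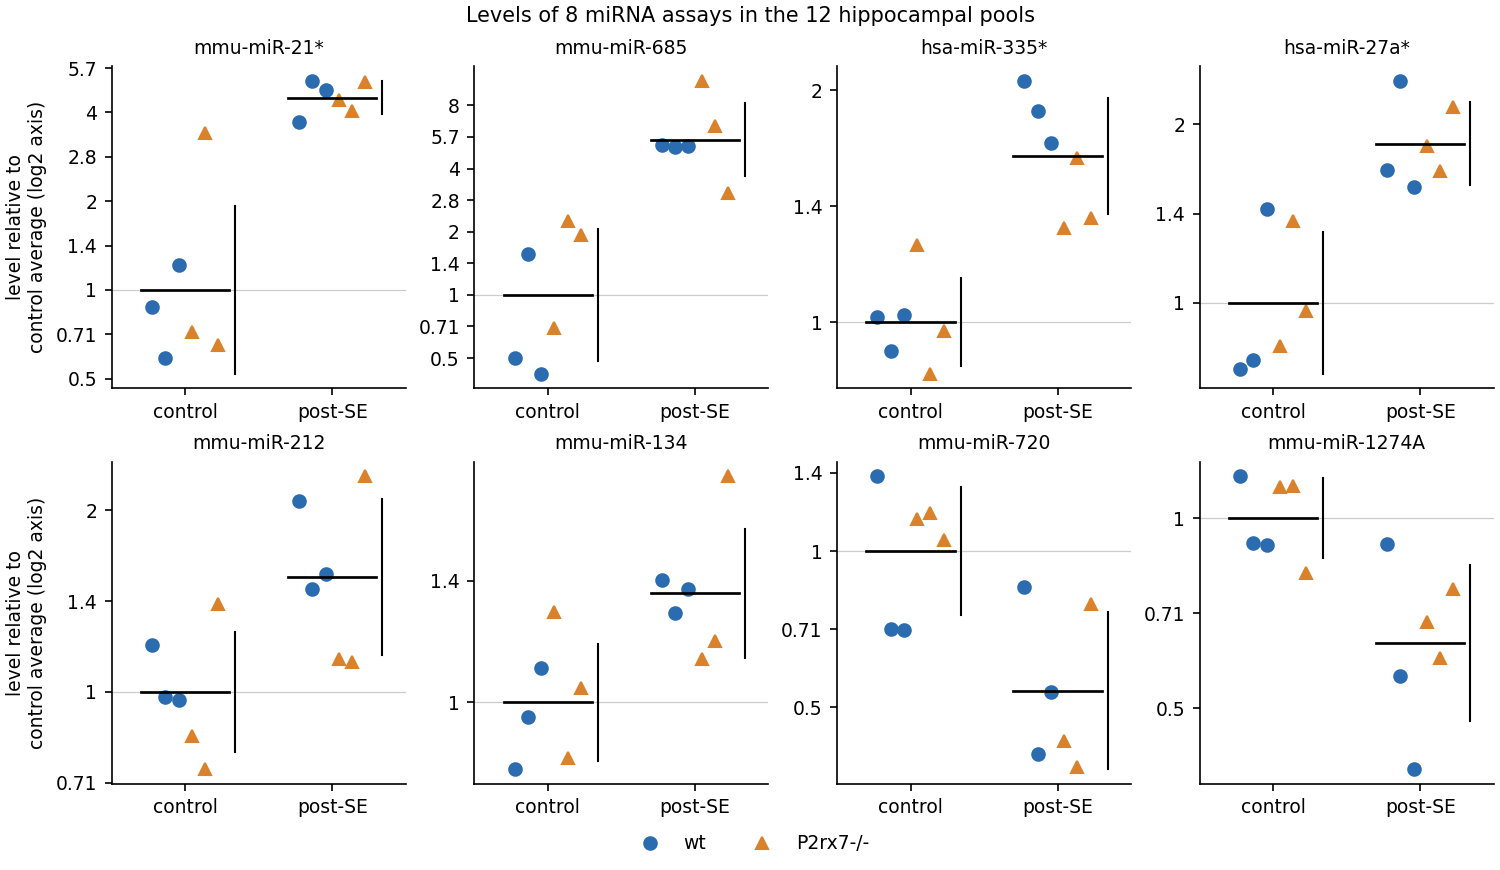
Level of 8 miRNA assays in each of the 12 samples relative to the geometric mean of the 6 control samples (y axis, log2 scale), for control and post-SE samples (x axis); circles are wt and triangles P2rx7-/- samples, horizontal bars are geometric means and vertical bars 1 SD of the log2 values (n = 6). The post-SE samples lie above all control samples for miR-21*, miR-685, miR-335* and miR-27a*, and the ranges overlap for the other assays.

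Among the 9 miRNAs higher post-SE at an unadjusted p below 0.05, 4 were passenger strands (miR-21*, miR-335*, miR-27a* and miR-93*), against 65 passenger strands among the 335 assays (19.4%), and 0 of the 7 lower ones were. No test was made of this share, and only assays written with an asterisk were counted as passenger strands. Over all 65 of them the median log2 change was -0.03, against -0.05 for the other assays, so the class as a whole was not raised. The guide strands of the hairpins of these 4 gave other values. MiR-21 ranged from 0.408 to 3.71 in control (median 0.905) and from 0.532 to 1.19 in post-SE samples (median 0.693), a log2 difference of -0.44 (95% interval -1.31 to 0.44), where the highest control was wt control replicate 1, without which it was -0.10. MiR-335 gave -0.37 (-0.92 to 0.19) and miR-93 gave -0.20 (-0.67 to 0.27). MiR-27a gave 2.32 with an interval of -0.81 to 5.46, and here wt control replicate 1 lay at 0.00827 against 0.467 to 4.93 in the other controls. Without that sample miR-27a gave 0.91 with a standard error of 0.69, and miR-27a* gave 0.82. Over 44 pairs of a passenger and a guide assay, 22 moved in the same direction.

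**Figure D3:**
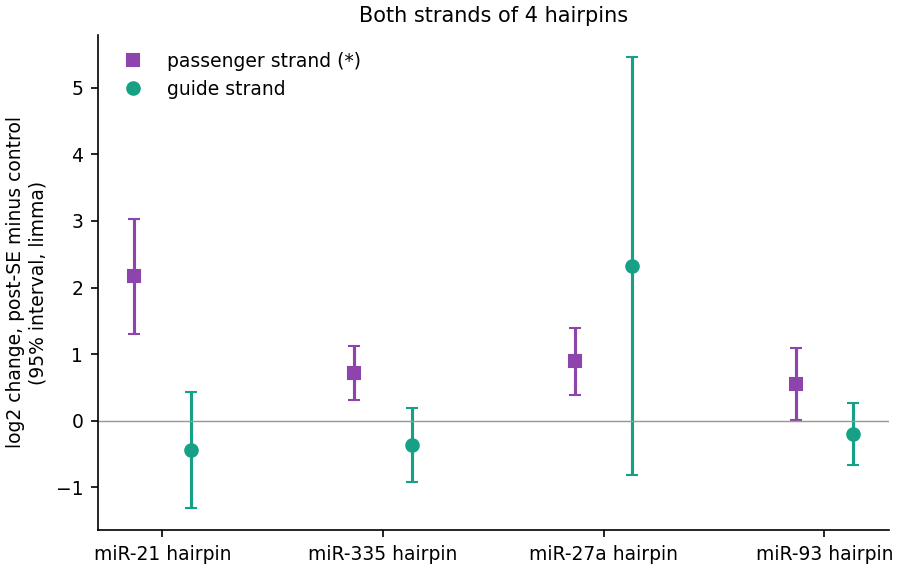
Log2 change post-SE against control with its 95% interval (y axis, limma) for the passenger strand (squares) and guide strand (circles) of 4 hairpins (x axis), n = 6 against 6 samples. The passenger strands lie at 2.17, 0.71, 0.89 and 0.55 and the guide strands at -0.44, -0.37, 2.32 and -0.20; without wt control replicate 1, which the plot includes, the guide strands miR-21 and miR-27a lie at -0.10 and 0.91.

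The other miRNAs with an unadjusted p below 0.05 and higher values post-SE included the activity-regulated miR-212 and miR-134, and none of them had an adjusted p under 0.834 (limma). MiR-212 lay between 0.744 and 1.40 (median 0.976) in control and between 1.12 and 2.28 (median 1.53) in post-SE samples, with 4 of 6 post-SE samples above all controls. The log2 difference was 0.63 (standard error 0.25, unadjusted p = 0.0269, limma), 0.69 in wt and 0.57 in P2rx7-/- mice. MiR-134, a dendritic miRNA known to repress the kinase Limk1, ranged from 0.827 to 1.29 (median 0.999) and from 1.13 to 1.90 (median 1.33), and differed by 0.45 on the log2 scale (standard error 0.20, limma unadjusted p = 0.046). Here 3 of 6 post-SE samples exceeded all controls. MiR-93*, mmu-miR-324-3p and miR-187 completed the higher ones, with log2 differences of 0.55, 1.99 and 0.64 and unadjusted limma p-values of 0.0486, 0.0494 and 0.0499, and miR-467d came next (0.86, unadjusted p = 0.0597). For miR-324-3p the size rested on single samples, 19.9 in P2rx7-/- post-SE replicate 1 and 0.0769 in wt control replicate 1, without the latter of which it was 1.26 (1.56 without the former). The difference of miR-187 was 0.38 without wt control replicate 1.

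The 7 miRNAs lower post-SE at an unadjusted p below 0.05 had adjusted p-values of 0.671 or higher (limma). They were led by miR-720 and miR-1274A, assays whose sequences are known to come from transfer RNAs rather than from miRNA hairpins. MiR-720 ranged from 0.706 to 1.39 (median 1.10) in control and from 0.383 to 0.854 (median 0.484) in post-SE samples, with 4 of 6 post-SE samples below all controls. On the log2 scale it differed by -0.89 (standard error 0.29, limma unadjusted p = 0.0100), -0.63 in wt and -1.15 in P2rx7-/- mice. MiR-1274A ranged from 0.819 to 1.17 (median 1.02) and from 0.400 to 0.911 (median 0.643), with 5 of 6 post-SE samples below all controls and a log2 value of -0.66 for post-SE minus control (standard error 0.23, limma unadjusted p = 0.0146). RNA degradation was not assessed in the files, and its part in these values was not tested. The assay rno-miR-190b gave -1.53 (standard error 0.58, unadjusted p = 0.0219), with ranges of 0.453 to 3.44 and 0.155 to 0.940, whereas hsa-miR-190b gave -0.16 (standard error 0.36; -0.34 without wt control replicate 1) and miR-190, of the same seed, -0.33 (standard error 0.19). MiR-1188 (-2.72, standard error 1.16) and miR-337-3p (-0.65, standard error 0.29) lie in the imprinted cluster of chromosome 12, and miR-690 (-0.57) and miR-130b (-0.69) were the remaining 2. MiR-301, which shares the seed of miR-130b, gave -0.39 (standard error 0.28). The next lowest p-values belonged to miR-302b (-0.86), miR-486 (-0.94) and miR-598 (-0.80, and -0.46 without wt control replicate 1).

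The fold-change rule of the study's methods (average FC above 1.5 or below 0.6), applied with each genotype's own controls as reference, called many more miRNAs than the tests. It gave 69 up-regulated (20.6%) and 10 down-regulated miRNAs (2.99%). The excess of up- over down-regulated miRNAs moved with the way FCs are averaged, and the geometric mean gave 41 and 32. Of the 69, 36 lost the call without their highest sample, 10 exceeded 1.5 in a single sample, and 6 had a fitted log2 change below 0. The average FC passed 1.5 in both genotypes for 24 miRNAs (7.16%) and was under 0.6 in both for 3 (0.896%), which were rno-miR-190b, miR-770-5p and miR-489. All 6 post-SE samples exceeded 1.5 for 5 miRNAs (1.49%). These were miR-21* (average FC 4.58 ± 0.988, SD, n = 6), miR-685 (6.00 ± 2.24), miR-27a* (1.88 ± 0.328), mmu-miR-324-3p (5.23 ± 4.97) and miR-150. MiR-150, a miRNA of mature lymphocytes, averaged 34.9 in wt and 2.77 in P2rx7-/- mice, and its wt reference held wt control replicate 1 at 0.000672 against 6.06 and 6.42 in the other wt controls. Its log2 difference was 3.22 with a 95% interval of -1.15 to 7.59 (limma), and 1.07 without that sample. Without wt control replicate 1 the rule gave 55 up-regulated and 7 down-regulated miRNAs.

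The responses of the genotypes, which share no samples, were next set side by side. For 163 of the 335 miRNAs (48.7%) the mean moved in the same direction in wt and P2rx7-/- mice. Across the 335 assays, which are not independent replicates, the log2 changes had a Pearson correlation of 0.0548 and a Spearman correlation of 0.0206, and of 0.0905 and 0.0261 without wt control replicate 1. Leaving out each sample in turn gave Pearson correlations of -0.037 to 0.128 and 45.4% to 53.1% moving in the same direction. With samples weighted by their spread the correlations were 0.148 (Pearson) and 0.150 (Spearman), and 57.9% moved in the same direction. MiR-21*, miR-685, miR-27a* and miR-335* were higher in both genotypes. This follows from their choice by all 6 post-SE samples lying above all 6 controls, and is not separate evidence of a shared response. The interaction of genotype and treatment gave 0 miRNAs at an adjusted p below 0.05 (0.0%; limma) and 8 at an unadjusted p below 0.05 (2.39%), with the interaction p at 0.598 for miR-21* and 0.359 for miR-685. For 31 of the 335 miRNAs, all wt post-SE samples moved one way from their controls' mean and all P2rx7-/- ones the opposite way. Each of these had an interaction adjusted p of 0.851 (limma), and how many would do so by chance was not computed.

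**Figure D4:**
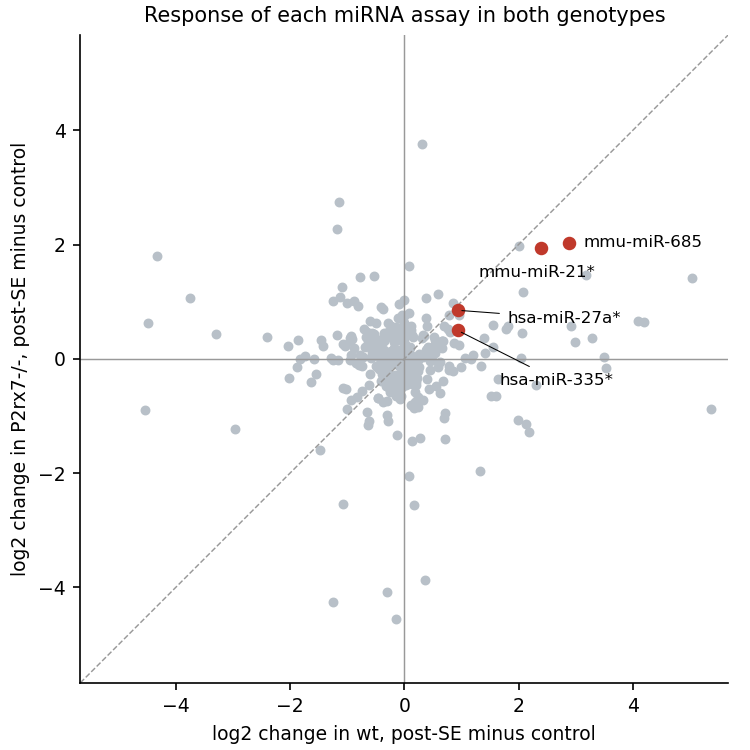
Log2 change post-SE against control in wt mice (x axis) and in P2rx7-/- mice (y axis) for each of the 335 assays (points), each genotype against its own 3 controls, with the dashed line marking equal changes. The 4 miRNAs in red were chosen because their post-SE samples lie above all controls, which places them in the upper right quadrant. The cloud as a whole has a Pearson correlation of 0.0548.

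The comparison was repeated without wt control replicate 1. On the same 335 assays limma called 0 miRNAs (0.0%), with 12 at an unadjusted p below 0.05 (3.58%), and 8 of these were among the 16 found with all samples (66.7% of the 12 and 50% of the 16). The separation of post-SE and control samples held for 4 miRNAs. Choosing assays by the remaining 11 samples gave 382 assays, and 0 were called (15 at an unadjusted p below 0.05). Among the added assays, miR-1896 (-2.40), miR-744 (0.57) and miR-676 (0.57) had an unadjusted p below 0.05 (adjusted p = 0.954 for each, limma). MiR-146a, a regulator of innate immune signalling, entered with a log2 difference of 0.54 (unadjusted p = 0.107).

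MiRNA lists linked to neuronal activity, cell types and families were then described by counts, beside 150 higher and 185 lower among all 335 assays, a median log2 change of -0.05 and 4.78% at an unadjusted p below 0.05. Of 3 activity-regulated miRNAs tested, 3 were higher and 2 reached an unadjusted p below 0.05 (miR-212 and miR-134), with a median of 0.45, and the other, miR-184, gave 0.06 (standard error 0.24). Of 4 miRNAs that the study's text links to seizures, taken with the strands written there, miR-27a* and miR-134 were higher at an unadjusted p below 0.05, and miR-21 (-0.44, and -0.10 without wt control replicate 1) and miR-18a (-0.43) did not reach it. The study also writes both of the latter as passenger strands, for which miR-21* gave 2.17 and miR-18a* gave 0.03 (0.13 without that sample), so the count depends on the strand taken. The study names them beside its own measurements of these samples, and the list is not independent evidence of a direction. The list of inflammation and microglia miRNAs had 6 of 9 assays higher, 1 of them (miR-21*) at an unadjusted p below 0.05, and a median of 0.40. In that list miR-155, a miRNA induced in activated macrophages and microglia, ranged from 0.297 to 22.5 in control and from 0.391 to 5.65 in post-SE samples. Its average FC against the controls of the same genotype was 1.95 in wt and 1.62 in P2rx7-/- mice. The unadjusted p over both genotypes was 0.603 (limma). The assays for miR-146b gave 0.32 (0.19 without wt control replicate 1) and 0.48, and those for miR-223, a miRNA of neutrophils and monocytes, gave -0.35 and -0.23.

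Neuron-enriched miRNAs, the defining markers of the labelled tissue, were read in all samples by 8 of 14 assays, of which 5 were higher and 3 lower with a median of 0.10, which turned to -0.04 without wt control replicate 1, and 0 at an unadjusted p below 0.05. Their summed level ran from 0.356 to 5.53 in control and from 0.686 to 1.92 in post-SE samples. MiR-128a gave 0.07 (standard error 0.23) and miR-137 gave 0.76 (standard error 0.59), and without that sample they gave 0.02 and 0.21. The oligodendrocyte miRNAs were split, with both miR-219 assays at 0.91 and 1.07 and both miR-338 assays at -0.46 and -0.10. Without wt control replicate 1 these were 0.49 and 0.41 for miR-219 and -0.21 and 0.18 for miR-338. The 2 red blood cell miRNAs tested were both lower, miR-451 at -1.02 (standard error 0.54, unadjusted p = 0.0855, limma; -0.58 without wt control replicate 1) and miR-486 at -0.94 (standard error 0.44, unadjusted p = 0.0544), and the third, miR-144, had a Ct in 5 control and 3 post-SE samples. The summed level of the 2 ran from 0.512 to 2.38 in control and from 0.420 to 0.907 in post-SE samples, and the part of blood in the results was not tested. The vessel wall list had 1 assay tested of 6, miR-145 at 1.02 (standard error 0.71; 0.48 without wt control replicate 1), and the list for ciliated cells and choroid plexus had 3 of 7 higher and a median of -0.03, which was 0.12 without that sample. The genotypes differed in both lists with all samples included. MiR-145 gave 2.04 in wt and 0.006 in P2rx7-/- mice. The ciliated cell and choroid plexus list had medians of -1.08 in wt and 0.65 in P2rx7-/- mice.

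Families with a shared seed or cluster were described in the same way. The let-7 guide strands were higher in 4 of 7 (median 0.07), the miR-17-92 and related clusters in 3 of 11 (median -0.24), the miR-34 family in 3 of 6 (-0.13), the miR-200 family in 4 of 5 (0.11), the miR-29 family in 1 of 2 (-0.06) and the miR-30 family in 4 of 4 (0.40). The medians in wt and P2rx7-/- mice were -0.12 and -0.06 for let-7, -0.39 and 0.01 for miR-17-92 and -1.01 and 0.28 for miR-34. They were 0.17 and -0.02 for miR-200, -0.34 and 0.22 for miR-29 and 1.15 and 0.36 for miR-30. The miR-30 family held miR-30a-5p at 1.82 with a standard error of 1.28, and at 0.43 without wt control replicate 1. Without that sample the medians of the let-7, miR-17-92, miR-34, miR-200 and miR-29 lists were 0.25, -0.16, -0.20, 0.20 and 0.08. None of these members had an unadjusted p below 0.05. The imprinted cluster of distal chromosome 12, which encodes many brain miRNAs including miR-134, was higher in 29 and lower in 31 of 60 assays (median -0.03, and 0.08 without that sample), with 1 higher and 2 lower at an unadjusted p below 0.05. Both tRNA-derived assays were lower at an unadjusted p below 0.05 (median -0.77).

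**Figure D5:**
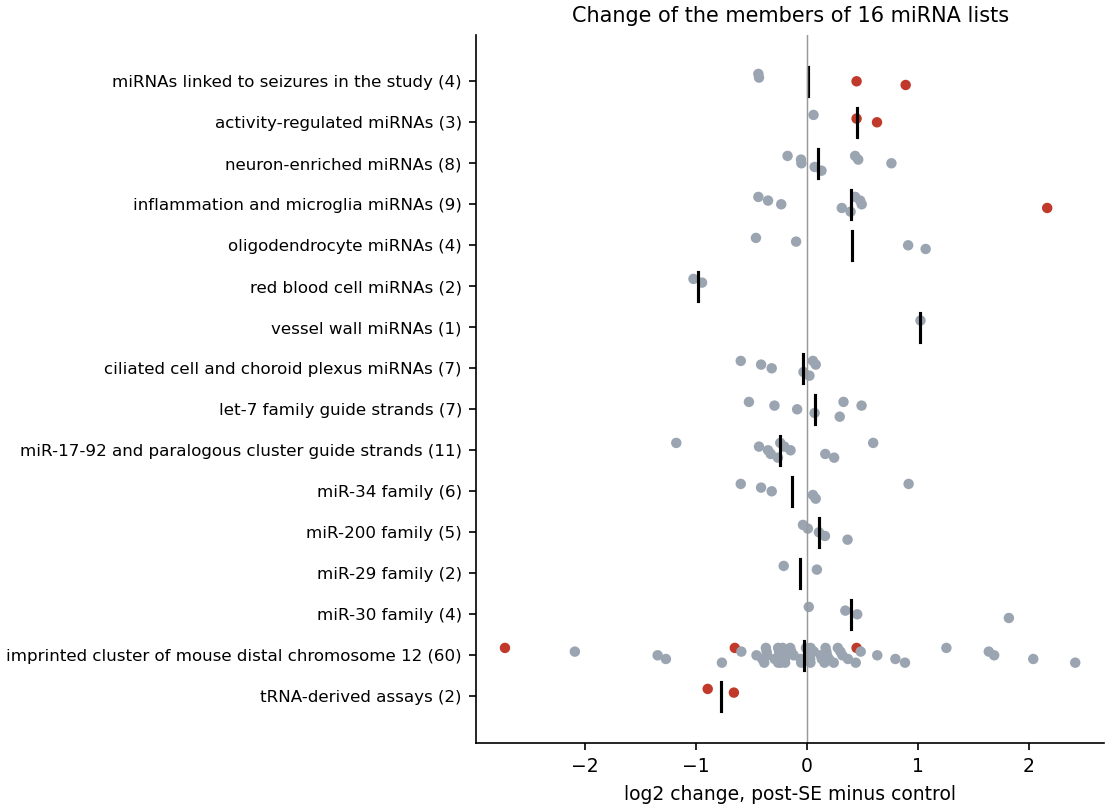
Log2 change post-SE against control (x axis) of the tested members (points) of 16 miRNA lists (y axis, number tested in brackets); red marks an unadjusted limma p below 0.05 and black bars are medians. The medians lie between -0.98 for the red blood cell list and 1.02 for the vessel wall list, which holds 1 assay; without wt control replicate 1, which the plot includes, these 2 medians are -0.66 and 0.48.

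The 284 miRNA assays without a Ct in every sample were compared by detection. A missing Ct need not mean a low level, because some of these assays had Ct values close to the lower limit of the table. Among the neuronal ones, the lowest Ct was 10.1 for miR-9, 10.1 for miR-138 and 10.5 for miR-218. The counts of samples with a Ct are therefore not a measure of abundance. A two-sided Fisher's exact test gave 0 with p below 0.05 before adjustment (0.0%), and 124 had a Ct in more post-SE samples and 122 in more control samples. The test could decide little here. With 6 samples per condition, an assay lacking a Ct in a single sample could not reach p below 0.05. Even a Ct in 4 control and 0 post-SE samples (miR-465a-3p) gave p = 0.0606 (Fisher's exact test). Without wt control replicate 1 the test gave 2 before adjustment (0.704%) and 0 after it, with 95 assays having a Ct in more post-SE samples and 123 in more control samples. MiR-132 was among them, with a Ct in 4 control and 5 post-SE samples. Its normalized values (mean Ct of the sample minus Ct, in cycles) ran from 8.09 to 8.35 in control (median 8.12) and from 8.32 to 8.64 in post-SE samples (median 8.44), at Ct values down to 10.2, close to the lower limit of the table. MiR-146a had a Ct in 5 control samples (median 5.78 cycles) and 6 post-SE samples (median 6.51), and the neuronal miR-124a in 5 (median 4.26) and 6 (median 4.55). The ranges of miR-146a and miR-124a overlapped between conditions, and those of miR-132 did so by a single control sample.

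Of the 335 assays, 17 pairs addressed the same miRNA in different designs, and 12 pairs moved in the same direction. Besides miR-190b, the assays differed for miR-324-3p, with log2 differences of 1.99 (standard error 0.90) for mmu-miR-324-3p and 0.65 (standard error 0.65) for hsa-miR-324-3p (1.26 and 0.37 without wt control replicate 1, and 0.00187 for the latter without wt post-SE replicate 1), and for miR-409-3p, with 0.64 for the rat and -0.25 for the human design.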

How the data were processed

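Hippocampal RNA (1 μg, Trizol, pooled from 2 mice per sample) was reverse transcribed, pre-amplified and read on TaqMan OpenArray plates. The authors deposited Ct values, which are not normalized and hold 653 assay lines, and fold changes (a ratio to a reference sample), which served only as an alternative scaling. The software that called Ct is not given in the sources used here. Samples were grouped by their labels, and 0 columns were left unassigned. Counts of reads do not exist for qPCR, so precision rests on the number of samples and the Ct.

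From the Ct values the mean over the 335 assays with a Ct in all 12 samples was subtracted (-ΔCt, log2 scale). With R 4.3.3, limma 3.58.1 (lmFit, eBayes) was fitted with genotype and treatment as additive terms, and p-values were adjusted by Benjamini-Hochberg over 335 assays (called below 0.05). The exact permutation test exchanged labels within genotype. The FC rule used 1.5 and 0.6. In simulated data the fit was checked for recovery of known changes. Python 3.11.15, pandas 2.3.3, scipy 1.17.1 and matplotlib 3.10.9 did the rest.

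Named miRNAs were the 10 lowest p in each direction, those called or not overlapping, the 5 lowest interaction p, list members and other assays or strands of these miRNAs. The members and lists were chosen with earlier results of these data known. Strand partners and miRNAs that share a seed, miR-150, miR-770-5p, miR-489, miR-409-3p and the 3 assays added by leaving out wt control replicate 1 were named after their values were seen. Alternatives covered the normalizer, the Ct limit, the model, averaging and each sample left out.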

Additional observations from a re-analysis of the deposited data

Results flagged for a closer look

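Single samples stood far from the other 5 of their condition in 5 of 60 groups of 6 examined over 30 named assays, where chance gives about 1 in 20. These were mmu-miR-324-3p in P2rx7-/- post-SE replicate 1 (level 19.9), miR-598 in wt control replicate 1 (3.32), miR-27a in wt control replicate 1 (0.00827), hsa-miR-324-3p in wt post-SE replicate 1 (12.5) and hsa-miR-190b in wt post-SE replicate 1 (0.475). For both miR-324-3p assays the high sample was a different one. Without the sample named, the log2 differences were 1.56 for mmu-miR-324-3p, -0.46 for miR-598, 0.91 for miR-27a, 0.00187 for hsa-miR-324-3p and 0.0476 for hsa-miR-190b (1.99, -0.80, 2.32, 0.65 and -0.16 with all samples).

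The 5 miRNAs with the lowest p of the interaction between genotype and treatment all had lower values in wt and higher values in P2rx7-/- mice post-SE. Choosing by the interaction favours such opposite directions, and 8 of 335 miRNAs (2.39%) reached an unadjusted interaction p below 0.05 (limma). The interaction (log2, P2rx7-/- minus wt) was 1.97 for miR-701, 1.13 for miR-1191, 1.32 for miR-30d*, 2.21 for miR-449b and 1.06 for miR-27b*, each with an adjusted p of 0.851 (limma) and so not past the threshold. Without wt control replicate 1 these were 1.90, 1.25, 1.21, 2.02 and 0.96. For miR-701 the levels were 1.48, 0.952 and 1.69 in wt control, 0.557, 0.912 and 0.585 in wt post-SE, 0.833, 0.452 and 1.11 in P2rx7-/- control and 1.03, 1.88 and 1.62 in P2rx7-/- post-SE samples. For miR-27b*, whose seed differs from that of miR-27a*, the wt log2 change was -0.67 and that in P2rx7-/- mice 0.39.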

How the results depend on the processing

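The number of miRNAs called, 2 with all samples, stayed at 2 with the median Ct, the mean of all detected assays, snoRNA135, quantile normalization, a Ct limit of 26, no genotype covariate, a robust trend and the methods' two-group test, which called miR-335* and miR-21*. It was 0 with snoRNA202, the deposited fold changes, 4 group means, the replicate block and the assays selected in 11 samples, 1 with sample weights, and 0 to 2 with each sample left out. Replicate numbers did not pair the samples across all groups (4 of 18 correlations of deviations over 0.1, range -0.23 to 0.28). The highest values, 0.277, 0.271 and 0.251, all lay between samples numbered replicate 3, in the groups other than wt control. With those samples, wt control replicate 3 gave 0.0654, 0.0942 and -0.0342. Whether samples numbered replicate 3 shared a source of spread was not tested. Under the replicate block the lowest adjusted p was 0.0815. Sample weights gave 34 miRNAs at an unadjusted p below 0.05 against 16. The FC rule gave 4 down-regulated miRNAs with snoRNA135, 19 with snoRNA202 and 32 with geometric means (10 with arithmetic means and the global mean), and 41 up-regulated with geometric means (69). Separation above all controls held for 2 miRNAs with the mean of all detected assays or the deposited fold changes and 1 with either snoRNA (4 in the report, 3 with quantile normalization and 4 to 6 with each sample left out), and separation below for 1 with the median Ct, 1 with snoRNA202 and 0 to 1 with each sample left out. The log2 difference of hsa-miR-190b (-0.16) ranged from -0.34 to 0.0867 with each sample left out, turning positive without wt control replicate 3 (0.0867) and without wt post-SE replicate 1 (0.0476). MiR-21* and miR-685 kept their direction in all 26 alternatives (log2 1.85 to 2.53 and 2.06 to 2.72), with adjusted p-values of 0.000271 to 0.166 and 0.0245 to 0.166, below 0.05 in 9 and 10 of them. Causes were not tested. With 1 well per assay and 3 pools per group, small changes could not be resolved.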
